A study of Mus musculus with 12 samples.

Results

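The subject is 44 genes of the cell division cycle, of which 20 act in S phase and 24 in G2 and mitosis. They were taken as the rows of the gene count table that carry their names, and are 44 of the 32285 genes listed. The RNA came from 2 progenitor populations of the bone marrow (BM), sorted mouse by mouse from the long bones of wild-type C57BL6/J mice. Ly6d- CLPs are common lymphoid progenitors without surface Ly6d, a marker of B-lineage commitment, and Flk2+ MPPs are multipotent progenitors that express the receptor Flk2. Each population was profiled at 1 month of age (1MO) and 3 months of age (3MO), with 3 libraries numbered 1 to 3 in each of the 4 groups and 12 libraries in all. The groups are called 1MO CLP, 3MO CLP, 1MO MPP and 3MO MPP, and no group was treated. The study profiled these cells to ask what changes in BM progenitors as the earliest T-cell progenitors of the thymus begin to decline. All 44 members passed the filter on low counts, and the smallest estimated count of any member in any library was 39, for Ccne1.

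S-phase genes are transcribed from late G1, when E2F factors are released from the retinoblastoma family of pocket proteins. Their products license and fire replication origins, supply deoxynucleotides and package the new DNA. Mitotic genes follow in G2, when the MuvB complex, together with B-MYB and FOXM1, activates promoters that carry a cell-cycle homology region (CHR) and CCAAT boxes, and their products condense, align and separate the chromosomes. Multipotent and lymphoid progenitors of the marrow are in large part cycling cells, and transcripts of both kinds are present in a bulk sample in proportion to the share of cells in those phases and to the RNA of each such cell, which cannot be told apart here.

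The promoters of the members differed in the letters they hold. RefSeq windows on GRCm38.p6, from 250 bases before a start to 50 bases after it, were at hand for 37 of the 44 members, 17 in S phase and 20 mitotic. No window was at hand for Gins2, Mcm4, Ccne2, Tpx2, Kif20a, Aurkb and Ccna2. The E2F letters searched on both strands were TTGGCGC and its variant TTCGCGC, then TTCCCGC and its variant TTGCCGC, and the first pair overlap where a window reads TTGGCGCGAA. A gene was counted if any of its windows held a match, and Mcm7 and Uhrf1 had 2 windows each. E2F letters were found for 9 of 17 S-phase members (52.9%) and 4 of 20 mitotic members (20%), against 10.9% of all 27025 genes with a window and 19.4% of those tested. The CHR letters TTTGAA and the variant TTCGAA were found on either strand for 16 of 20 mitotic members (80%) and 3 of 17 S-phase members (17.6%), against 21.7% of all and 16.8% of tested genes. CCAAT on either strand was found for 17 mitotic members (85%) and 11 S-phase members (64.7%), against 41.1% of all genes with a window. A CHR together with CCAAT was present for 15 of 20 mitotic members (75%), 3 of 17 S-phase members (17.6%) and 9.65% of all. The members with none of these letters were Ccne1, E2f1, Tyms and Ung in S phase and Birc5 and Nusap1 in mitosis. A match describes the letters of a window and does not show that a factor binds there. The sequences below stop before the annotated gene and run towards it on its own strand, with matches in capitals, and were chosen to show the E2F letters of S-phase members, the CHR and CCAAT of mitotic members, and the E2F and CCAAT letters of Ccnb1, a mitotic member without a CHR match.
Mcm6, chr1:128359706-128359955, minus strand: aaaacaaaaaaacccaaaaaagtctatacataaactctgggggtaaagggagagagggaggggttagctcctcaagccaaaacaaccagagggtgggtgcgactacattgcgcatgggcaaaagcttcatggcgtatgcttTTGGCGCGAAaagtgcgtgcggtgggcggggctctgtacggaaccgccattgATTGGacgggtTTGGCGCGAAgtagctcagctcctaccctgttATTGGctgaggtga
Uhrf1, chr17:56303087-56303320, plus strand: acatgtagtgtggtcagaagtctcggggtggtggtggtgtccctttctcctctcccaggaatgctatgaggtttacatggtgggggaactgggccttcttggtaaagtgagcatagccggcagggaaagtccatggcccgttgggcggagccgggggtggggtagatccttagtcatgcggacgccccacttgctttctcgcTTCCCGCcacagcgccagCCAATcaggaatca
Top2a, chr11:99024190-99024439, minus strand: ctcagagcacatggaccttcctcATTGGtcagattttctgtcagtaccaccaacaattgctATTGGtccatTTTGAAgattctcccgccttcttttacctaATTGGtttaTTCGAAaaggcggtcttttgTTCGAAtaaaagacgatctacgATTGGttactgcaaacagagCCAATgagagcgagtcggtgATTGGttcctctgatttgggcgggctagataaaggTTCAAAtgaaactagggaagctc
Kif11, chr19:37376132-37376381, plus strand: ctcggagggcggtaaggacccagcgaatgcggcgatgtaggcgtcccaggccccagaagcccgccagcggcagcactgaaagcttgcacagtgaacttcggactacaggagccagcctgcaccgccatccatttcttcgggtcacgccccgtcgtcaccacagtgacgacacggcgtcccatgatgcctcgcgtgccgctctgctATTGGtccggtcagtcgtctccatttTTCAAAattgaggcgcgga
Ccnb1, chr13:100786571-100786736, minus strand: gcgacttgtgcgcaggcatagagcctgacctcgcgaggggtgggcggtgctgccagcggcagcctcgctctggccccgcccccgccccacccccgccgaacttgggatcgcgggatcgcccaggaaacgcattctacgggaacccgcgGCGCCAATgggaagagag
In Mcm6 the capitals mark paired E2F letters and 2 CCAAT boxes in the reverse sense, and in Uhrf1 a single E2F match at position -48 from the RefSeq start and a CCAAT. Top2a carried 4 CHR and 6 CCAAT matches before its start, and Kif11 a single CHR at -19 and a single CCAAT at -45. In Ccnb1 the capitals are an E2F match read on the opposite strand and a CCAAT that share letters, at -102 for the E2F match.

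The labels of the populations were borne out by the transcripts that define them. Il7r, the interleukin-7 receptor gene, ranged from 299 to 402 CPM in the CLP libraries and from 5.24 to 18.5 CPM in the MPP libraries, where CPM is the count scaled to the size of its library after TMM normalisation. Kit, the stem cell factor receptor gene, ranged from 222 to 377 CPM in CLPs and from 672 to 797 CPM in MPPs. The total of the estimated counts was 8889083 to 20677785 per library, and the 44 members together took 1.06% to 1.15% of it in CLP libraries and 0.834% to 0.955% in MPP libraries. The libraries numbered 3 had the highest summed level of 12 erythroid markers in each group, up to 227 CPM in CLPs and 519 CPM in MPPs. Of the stroma list, Col1a1 ranged from 133 to 400 CPM in 1MO CLP, from 0 to 1.92 CPM in 3MO CLP, from 2.11 to 49.6 CPM in 1MO MPP and from 0 to 5.46 CPM in 3MO MPP.

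Among S-phase members, the level per kilobase of the longest protein-coding transcript, averaged over the groups, ran from 5.0 CPM per kb for Ccne1, the cyclin E1 gene, to 163 CPM per kb for Pcna, the sliding clamp of the replication fork. Mitotic members ran from 13.0 CPM per kb for Birc5, the chromosomal passenger protein survivin, to 244 CPM per kb for Top2a, the topoisomerase that decatenates sister DNA. The median was 53.5 CPM per kb over the S-phase members and 35.4 CPM per kb over the mitotic members. Both kinds are scattered over the genome, with the 20 S-phase members on 11 chromosomes and the 24 mitotic members on 11. Within a group, the coefficient of variation over the 3 libraries had a median of 10.6% to 17.4% over S-phase members and of 8.8% to 21.35% over mitotic members, and its highest value was 51.6%, for Ccne1 in 3MO CLP.

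Each CLP library stood above each MPP library in the mean level of both kinds of member, at both ages. The 20 S-phase members had a mean log2 CPM of 6.99, 7.13 and 7.10 in the 1MO CLP libraries (7.07 ± 0.07, SD, n = 3) and of 6.84, 7.01 and 6.89 in the 3MO CLP libraries (6.92 ± 0.09, SD, n = 3). The MPP libraries lay lower, with 6.67, 6.48 and 6.73 for the younger mice (6.63 ± 0.13, SD, n = 3) and 6.57, 6.68 and 6.75 for the older mice (6.66 ± 0.09, SD, n = 3). For the 24 mitotic members the mean log2 CPM was 7.24, 7.19 and 7.36 in 1MO CLP, 7.20, 7.22 and 7.15 in 3MO CLP, 6.93, 6.66 and 6.87 in 1MO MPP, and 6.60, 6.64 and 6.69 in 3MO MPP. The lowest CLP library (7.15) stood above the highest MPP library (6.93). Between the ages the values overlapped for both kinds of member in MPPs and for mitotic members in CLPs, and for S-phase members the highest 3MO CLP library (7.01) lay above the lowest 1MO CLP library (6.99).

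**Figure D1:**
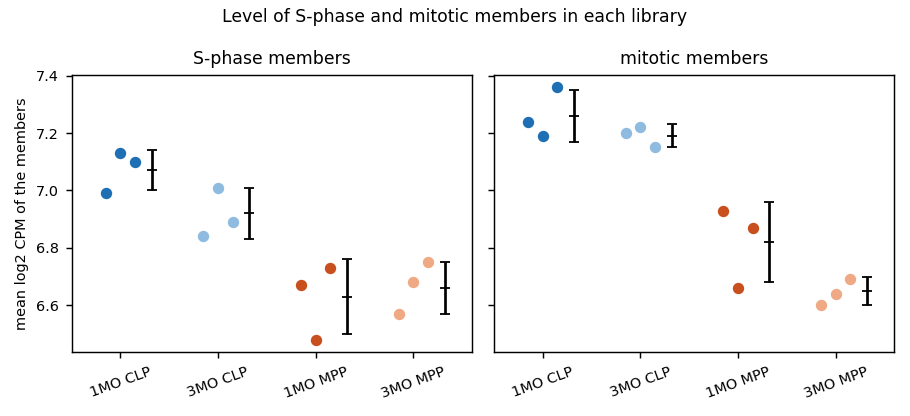
Mean log2 CPM of the 20 S-phase members (left) and the 24 mitotic members (right) in each of the 12 libraries, by group, with the mean and SD of 3 libraries in black beside the points; the vertical axis does not start at 0. All CLP libraries sit at 6.84 or above for S-phase members and at 7.15 or above for mitotic members, and all MPP libraries sit lower, at most 6.75 and 6.93.

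At 1MO the S-phase members were modestly higher in CLPs than in MPPs, and 1 of the 20 passed the test across all genes. All 20 had a positive log2 fold change, from 0.03 for Tyms to 1.41 for Ccne1, with a median of 0.41 (1.33-fold), whereas over all 13367 genes tested the median was -0.02 and 47.8% were positive. Uhrf1 rose, and it alone passed edgeR's quasi-likelihood test (threshold 0.05 after adjustment), which called 5.38% of all genes, 2.57% higher and 2.81% lower in CLPs. DESeq2 called 6 (Uhrf1, Ccne1, Mcm2, Rrm2, Mcm4 and Mcm6), with 4.04% of all genes called higher. At an unadjusted p under 0.05, 10 of 20 were higher, against 7.06% of all genes, and in 12 of 20 the 3 CLP libraries all lay above the 3 MPP libraries, against 11.1% of all genes. Each member shares its libraries with the others, so these counts describe these 6 libraries and are not a test of the group.

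Uhrf1, which reads hemimethylated DNA behind the fork and recruits the maintenance methyltransferase, lies on chromosome 17 from 56303321 to 56323486 (plus strand, GRCm38). Its level was 448, 360 and 377 CPM in the 1MO CLP libraries (395 ± 46.7, SD, n = 3) and 293, 258 and 257 CPM in the 1MO MPP libraries (269 ± 20.5, SD, n = 3), a log2 fold change of 0.55 (standard error, SE, 0.15, edgeR adjusted p = 0.044). The groups did not overlap, but the call was close to the threshold: with 1 library left out it held without 3MO CLP #1 (0.032) and without 3MO MPP #1 (0.035) and was lost without any of the other 10, with an adjusted p of up to 0.17 from edgeR, and it was lost in a fit of the 6 libraries compared, which called Ccne1 and Rrm2 instead. At 3MO the levels of Uhrf1 were 390, 307 and 310 CPM in CLPs and 315, 287 and 291 CPM in MPPs, which overlapped (log2 fold change 0.17, 95% interval -0.14 to 0.49).

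The 6 subunits of the MCM helicase, which opens the DNA at each origin, lay close together, with log2 fold changes of 0.28 to 0.51 at 1MO, and 4 of them were at an unadjusted p under 0.05. Mcm6, on chromosome 1 from 128331590 to 128359664, was at 619, 757 and 759 CPM in 1MO CLP and at 567, 495 and 517 CPM in 1MO MPP. Mcm4, on chromosome 16 from 15623897 to 15637400, was at 287, 329 and 343 CPM against 231, 209 and 234 CPM, and Mcm2 at 333, 364 and 289 CPM against 268, 229 and 240 CPM. None of these 3 overlapped between the populations, with edgeR adjusted p of 0.089, 0.061 and 0.12. Loading and activation of the helicase is the work of Cdc6, Cdt1, Cdc45 and Gins2, whose log2 fold changes ran from 0.29 to 0.53.

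Of the genes of nucleotide supply, Rrm2, the S-phase subunit of ribonucleotide reductase on chromosome 12 from 24708241 to 24714146, was at 105, 142 and 151 CPM in 1MO CLP and 85.8, 67.6 and 79.8 CPM in 1MO MPP, with a log2 fold change of 0.77 (SE 0.25, edgeR adjusted p = 0.094). Tyms, thymidylate synthase, was at 51.5, 80.6 and 53.6 CPM against 70.6, 36.7 and 74.7 CPM, so that its groups overlapped throughout. Ccne1, the cyclin that starts S phase with CDK2, lies on chromosome 7 from 38097984 to 38107534. It was at 14.5, 12.9 and 13.2 CPM in 1MO CLP and 5.46, 4.28 and 5.42 CPM in 1MO MPP, the widest log2 fold change of any member at 1.41 (SE 0.44, edgeR adjusted p = 0.085). E2f1, the activator of the S-phase program and itself a target of it, was at 72.3, 63 and 56.5 CPM against 53.6, 63.3 and 47.4 CPM, and these values overlapped. Pcna likewise overlapped, at 202, 292 and 334 CPM against 218, 221 and 273 CPM.

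The mitotic members were also higher in CLPs at 1MO, and 2 of the 24, Plk1 and Ccnb1, passed the test, while DESeq2 called 4 with Top2a and Aurka added. All 24 log2 fold changes were positive, from 0.16 for Anln to 0.83 for Plk1, with a median of 0.42 (1.34-fold). The unadjusted p was under 0.05 for 15 of 24, and in 14 of 24 the CLP libraries lay wholly above the MPP libraries, beside the shares of all genes given above. Plk1, the polo-like kinase that drives mitotic entry and spindle assembly, on chromosome 7 from 122159439 to 122169873, was at 70.7, 73.5 and 79.5 CPM in 1MO CLP (74.6 ± 4.5, SD, n = 3) and 38.8, 36 and 51.2 CPM in 1MO MPP (42 ± 8.1, SD, n = 3). On the log2 scale it rose by 0.83 (SE 0.19, edgeR adjusted p = 0.018). Ccnb1, the cyclin B1 gene on chromosome 13 from 100778650 to 100786570, was at 110, 122 and 127 CPM against 67.3, 72.2 and 80.7 CPM, a log2 fold change of 0.70 (SE 0.19, edgeR adjusted p = 0.044). Both genes were separated between the populations by more than the spread of their libraries. With 1 library left out, Plk1 kept its call in 8 of 12 fits and lost it without 1MO CLP #2 (0.065), 1MO CLP #3 (0.084), 1MO MPP #1 (0.099) or 1MO MPP #2 (0.12), adjusted p-values from edgeR. Ccnb1 kept its call without 3MO CLP #1 or any 1 of the 3MO MPP libraries and lost it in the other 8 fits, with an adjusted p of up to 0.18 from edgeR.

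Aurka, the centrosomal Aurora kinase, was at 52.2, 48 and 47.7 CPM in 1MO CLP and 32.8, 29.1 and 34 CPM in 1MO MPP (log2 fold change 0.62, edgeR adjusted p = 0.13). Kif23, a kinesin of the central spindle, was at 247, 202 and 201 CPM against 160, 144 and 160 CPM (log2 fold change 0.49, edgeR adjusted p = 0.16). Neither overlapped between the populations, and neither passed the threshold. Mki67, the gene of the Ki-67 antigen that coats mitotic chromosomes, was at 2400, 2190 and 2320 CPM against 2080, 1720 and 1480 CPM, with a log2 fold change of 0.39 (95% interval 0.04 to 0.74). Cdk1, the kinase partner of cyclins A and B, overlapped, at 61.5, 65.9 and 78.1 CPM against 65.3, 29 and 68.3 CPM, with a mean of 54.2 ± 21.9 CPM (SD, n = 3) in 1MO MPP. The checkpoint and anaphase genes Cdc20, Ube2c, Bub1, Bub1b and Ttk had log2 fold changes of 0.22 to 0.57. In 1 of the 5, Bub1b, the CLP libraries lay wholly above the MPP libraries, against 11.1% of all genes.

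**Figure D2:**
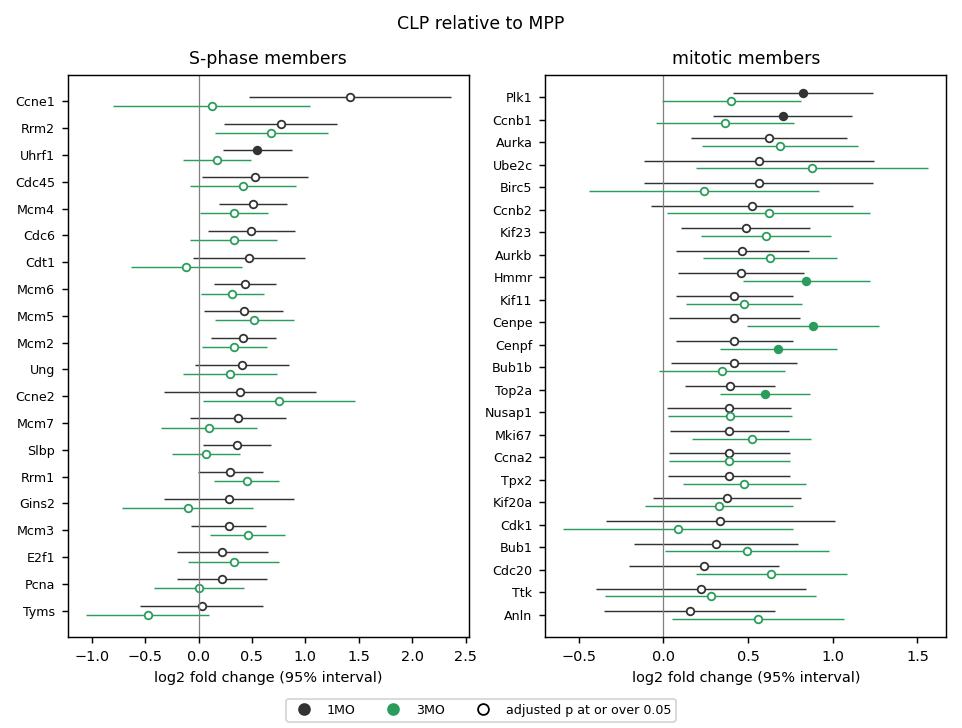
Log2 fold change of each member in CLP relative to MPP at 1MO (black) and 3MO (green) with its 95% interval from edgeR, S-phase members on the left and mitotic members on the right, filled where the adjusted p is under 0.05. At 1MO all 44 points lie right of 0 with Uhrf1, Plk1 and Ccnb1 filled, and at 3MO Tyms, Cdt1 and Gins2 lie left of 0 with Top2a, Cenpe, Cenpf and Hmmr filled.

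At 3MO the mitotic members stood further above MPPs than the S-phase members did. The median log2 fold change was 0.51 (1.42-fold) over the 24 mitotic members, all of them positive, and 0.32 (1.25-fold) over the 20 S-phase members, of which 17 were positive, whereas all genes had a median of -0.03. Top2a, Cenpe, Cenpf and Hmmr rose in CLPs and no S-phase member was called by edgeR, which called 6.07% of all genes, 2.73% higher and 3.34% lower. At an unadjusted p under 0.05, 17 mitotic and 8 S-phase members were higher, against 8.18% of all genes, and DESeq2 called 10 and 3, with 4.57% of all genes called higher. The CLP libraries lay wholly above the MPP libraries for 15 mitotic and 10 S-phase members, against 10.1% of all genes, and wholly below for Tyms, against 11.7% of all genes. The difference between the kinds of member was not tested.

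Top2a, on chromosome 11 from 98992943 to 99024189 and printed above with its CHR and CCAAT letters, was at 1560, 1540 and 1450 CPM in 3MO CLP (1520 ± 63.1, SD, n = 3) and 1010, 1040 and 955 CPM in 3MO MPP (1000 ± 41.9, SD, n = 3), a log2 fold change of 0.60 (SE 0.13, edgeR adjusted p = 0.0090). Cenpe, the kinetochore motor that carries chromosomes to the spindle equator, on chromosome 3 from 135212537 to 135273611, was at 392, 300 and 298 CPM against 200, 177 and 160 CPM, a log2 fold change of 0.88 (SE 0.18, edgeR adjusted p = 0.0084). In both genes the lowest CLP library was above the highest MPP library by more than the range within the MPP group. Hmmr, a spindle protein that binds TPX2, on chromosome 11 from 40701395 to 40733422, was at 106, 120 and 116 CPM against 57.9, 67.4 and 65.3 CPM, a log2 fold change of 0.84 (SE 0.18, edgeR adjusted p = 0.0089). Cenpf, a large kinetochore protein encoded on chromosome 1 from 189640606 to 189688086, was at 394, 368 and 424 CPM against 256, 228 and 257 CPM, a log2 fold change of 0.68 (SE 0.16, edgeR adjusted p = 0.020). Top2a, Cenpe and Hmmr kept their calls in all 12 fits that left out 1 library and Cenpf in 9 of 12, all but those without 3MO CLP #1, 3MO CLP #3 or 3MO MPP #2. Without 3MO MPP #1 the count of mitotic members called was 10 in place of 4, while 2.21% of all genes were called higher in that fit. The 4 libraries numbered 3 each had the highest sum of erythroid markers within their own group. Leaving them out called 0 members at either age. The log2 fold changes were then 0.61 for Top2a, 0.88 for Cenpe and 0.85 for Hmmr at 3MO. At 1MO they were 0.56 for Uhrf1, 0.95 for Plk1 and 0.74 for Ccnb1. That fit rests on 8 libraries, and its calls over all genes also fell, to 133 higher and 125 lower at 1MO and 121 higher and 169 lower at 3MO.

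The same members at 1MO had log2 fold changes of 0.39 for Top2a, 0.42 for Cenpe, 0.46 for Hmmr and 0.42 for Cenpf. Their 1MO levels were 1480, 1470 and 1420 CPM in CLPs and 1230, 1080 and 1020 CPM in MPPs for Top2a, and 323, 262 and 282 CPM against 271, 197 and 181 CPM for Cenpe. Conversely, Plk1 at 3MO was at 54.2, 57.5 and 57.2 CPM in CLPs and 40.7, 37.9 and 49.3 CPM in MPPs, which did not overlap (log2 fold change 0.40, edgeR adjusted p = 0.28). Ccnb1 at 3MO was at 93.5, 106 and 112 CPM against 106, 66 and 69.5 CPM and overlapped through the library 3MO MPP #1. By edgeR no member was called at both ages, whereas 1.84% of all genes were called higher at both, and DESeq2 called Aurka and Top2a at both. The change of the difference with age was tested as the interaction reported further on.

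Among S-phase members at 3MO, the MCM subunits had log2 fold changes of 0.10 to 0.52. In 5 of the 6 the CLP libraries lay wholly above the MPP libraries, against 10.1% of all genes. Mcm5, on chromosome 8 from 75109569 to 75128439, was at 339, 391 and 318 CPM in CLPs and 179, 277 and 273 CPM in MPPs (log2 fold change 0.52, edgeR adjusted p = 0.094), and Mcm3 at 382, 437 and 377 CPM against 234, 309 and 325 CPM (log2 fold change 0.46, edgeR adjusted p = 0.12). Rrm1, the large subunit of ribonucleotide reductase, was at 403, 478 and 371 CPM against 296, 299 and 321 CPM (log2 fold change 0.45, edgeR adjusted p = 0.083). These were the S-phase members with the smallest p at 3MO, and none passed the threshold. Tyms was the exception in direction, at 52.2, 50.5 and 44.4 CPM in CLPs and 86.7, 61.8 and 56.3 CPM in MPPs, with a log2 fold change of -0.48 (95% interval -1.05 to 0.10, edgeR adjusted p = 0.38). Cdt1 (-0.11) and Gins2 (-0.10) were the other members below 0, and Pcna, at 0.01, showed no direction. Ccne1 at 3MO was at 5.04, 11.9 and 16.4 CPM in CLPs and 14.4, 6.47 and 9.92 CPM in MPPs, which overlapped from end to end.

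Across both ages, 17 of 20 S-phase and 24 of 24 mitotic members had a positive log2 fold change at 1MO and again at 3MO, comparisons that share no library, against 32.1% of all genes. In 7 S-phase members (Mcm2, Mcm4, Mcm5, Mcm6, Cdc45, Rrm1 and Rrm2) the CLP libraries lay wholly above the MPP libraries at each age, against 5.25% of all genes. This held for 11 mitotic members (Mki67, Top2a, Ccna2, Aurka, Aurkb, Plk1, Kif11, Kif23, Tpx2, Nusap1 and Hmmr). Other transcripts also differ between these sorted populations. The 10 B-lineage markers summed to 255 to 301 CPM in 1MO CLP, 190 to 230 CPM in 3MO CLP, 31 to 37.1 CPM in 1MO MPP and 18.9 to 42.8 CPM in 3MO MPP, with Igll1 at 0 in every library but 1. Erythroid markers, 12 of 12 of which had a count in each group, summed to 62.6 to 227 CPM and 67.8 to 149 CPM in 1MO and 3MO CLP and to 218 to 519 CPM and 220 to 394 CPM in 1MO and 3MO MPP, of which Car2 made up 192 to 346 CPM in MPPs. Myeloid markers, 12 of 12 with a count, summed to 1170 to 1550, 1030 to 1410, 910 to 1140 and 961 to 1310 CPM in the same order. Stroma markers, 10, 9, 10 and 8 of 10 with a count, summed to 571 to 988, 368 to 401, 197 to 318 and 183 to 280 CPM, with Col3a1 and Pdgfra at 0 in 3MO MPP. Of these sums Pecam1 made up 263 to 299 CPM in CLPs and 121 to 172 CPM in MPPs, and Pdgfrb 51.7 to 121 CPM over all libraries. The part of these marker transcripts in the difference of the cell-cycle genes was not tested.

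**Figure D3:**
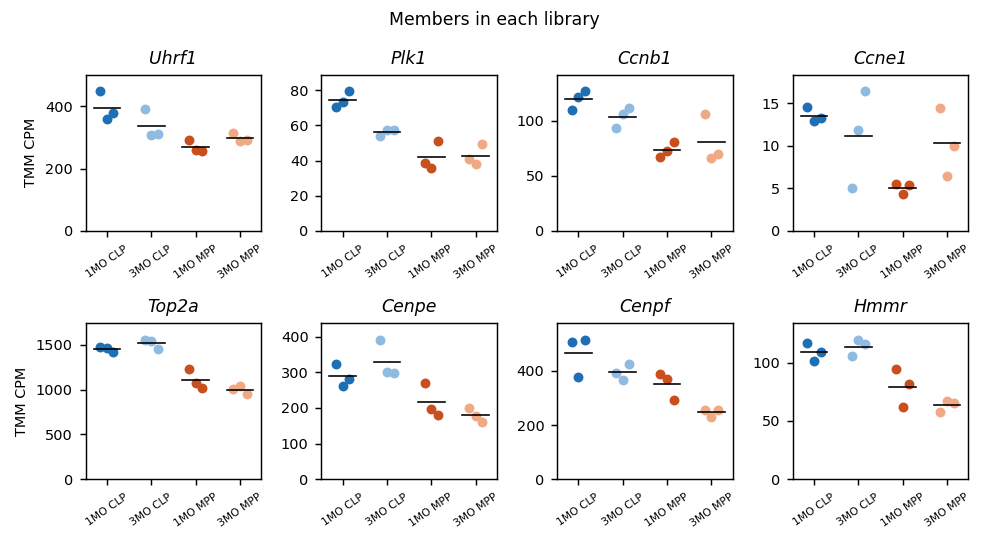
CPM after TMM scaling of Uhrf1, Plk1, Ccnb1, Ccne1, Top2a, Cenpe, Cenpf and Hmmr in each library, by group, with a line at the mean of 3 libraries; each vertical axis starts at 0 and has its own scale. The CLP points of Top2a lie between 1420 and 1560 CPM at both ages and the MPP points between 955 and 1230 CPM, while Ccne1 spreads from 5.04 to 16.4 CPM within 3MO CLP.

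Between 1MO and 3MO no member was called in CLPs. In edgeR's test 0 of the 20 S-phase and 0 of the 24 mitotic members passed, 0 of 44 had an unadjusted p under 0.05 and DESeq2 called 0, where edgeR called 0.0748% of all genes, 0.0299% higher and 0.0449% lower, and 5.9% had an unadjusted p under 0.05, 2.96% higher and 2.94% lower. The median log2 fold change of 3MO relative to 1MO was -0.13 over S-phase members, 17 of which were negative, and -0.10 over mitotic members, 14 of which were negative, beside -0.01 over all genes. The intervals bound how large a change could be: for 11 of 20 S-phase and 13 of 24 mitotic members the 95% interval lay within 1.5-fold in either direction, and for 18 and 22 within 2-fold. Gins2, Ccne1, Birc5 and Ube2c had wider intervals.

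The smallest p in CLPs belonged to Plk1, which was at 70.7, 73.5 and 79.5 CPM at 1MO and 54.2, 57.5 and 57.2 CPM at 3MO (log2 fold change -0.41, 95% interval -0.81 to 0.00, edgeR adjusted p = 0.85). Cdt1, the licensing factor that loads the helicase, on chromosome 8 from 122568015 to 122573554, was at 147, 103 and 111 CPM and at 82.8, 90.6 and 91.9 CPM (log2 fold change -0.44, 95% interval -0.96 to 0.07). The ages did not overlap in either gene, nor in Cdk1 and Nusap1, and these 4 were the members wholly lower at 3MO, 1 of 20 in S phase and 3 of 24 in mitosis against 6.13% of all genes, and none was wholly higher, against 4.51% of all genes. With 1 library left out, which leaves fewer values to overlap, the counts of members not overlapping in either direction ran from 1 to 5 in S phase and from 3 to 12 in mitosis, both highest without 1MO CLP #1, where 30.3% of all genes did not overlap (15.9% to 30.3% over the fits without 1 CLP library). Birc5 was at 39.6, 57.1 and 80.5 CPM and at 44.6, 42.1 and 34.1 CPM (log2 fold change -0.55, 95% interval -1.23 to 0.12), and Slbp, which binds the stem-loop of histone mRNA, at 139, 123 and 147 CPM and at 124, 110 and 110 CPM (log2 fold change -0.25, 95% interval -0.57 to 0.07). Kif23 went the other way, from 247, 202 and 201 CPM to 306, 227 and 277 CPM (log2 fold change 0.32, 95% interval -0.06 to 0.70). Birc5, Slbp and Kif23 overlapped between the ages.

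In CLPs the 95% intervals of Mki67, Top2a, Mcm2 and Pcna between the ages all included 0. Mki67 was at 2400, 2190 and 2320 CPM at 1MO and 2180, 2550 and 2270 CPM at 3MO, a log2 fold change of 0.02 with a 95% interval of -0.33 to 0.37. Top2a had a log2 fold change of 0.06 (95% interval -0.21 to 0.32) and Mcm2, at 333, 364 and 289 CPM and 324, 327 and 310 CPM, one of -0.04 (95% interval -0.34 to 0.27). Pcna was at 202, 292 and 334 CPM at 1MO and 215, 265 and 238 CPM at 3MO (log2 fold change -0.21, 95% interval -0.63 to 0.21). Over the same libraries the stroma gene Col1a1, at the levels given above, fell with age in CLPs (edgeR adjusted p = 0.034), as did Rag1, the recombinase gene, from 265, 197 and 326 CPM to 79.8, 83.9 and 126 CPM (edgeR adjusted p = 0.043).

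In MPPs no member was called between the ages either. edgeR called 0 of 44, where it called 0.0224% of all genes (0.00748% higher and 0.015% lower), DESeq2 called 0, and 2 members had an unadjusted p under 0.05, beside 3.48% of all genes (2.06% higher and 1.41% lower). These were Ccne1 and Cenpf. Ccne1 was at 5.46, 4.28 and 5.42 CPM at 1MO and 14.4, 6.47 and 9.92 CPM at 3MO (log2 fold change 1.01, 95% interval 0.07 to 1.95, edgeR adjusted p = 1.0), and its ages did not overlap, as for 3.96% of all genes in that direction. Cenpf was at 387, 371 and 291 CPM and at 256, 228 and 257 CPM, with a log2 fold change of -0.50 (95% interval -0.85 to -0.15, edgeR adjusted p = 1.0), and did not overlap, as for 4.61% of all genes in that direction. With 1 library left out, 1 to 5 S-phase and 1 to 6 mitotic members did not overlap, the highest counts without 3MO MPP #1 and without 3MO MPP #3, where 17.8% and 21.2% of all genes did not overlap. Over S-phase members the median log2 fold change was 0.04, with 12 of 20 positive (-0.03 without 1MO MPP #2 and -0.02 without 3MO MPP #3), and over mitotic members -0.17, with 19 of 24 negative. Within 1.5-fold lay the 95% intervals of 11 S-phase and 12 mitotic members, and within 2-fold those of 18 and 22, with Ccne1, Ccne2, Ube2c and Ttk wider.

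Cdc20, the activator of the anaphase-promoting complex, was at 64.9, 56 and 82.4 CPM in 1MO MPP and 39.6, 63.2 and 46.6 CPM in 3MO MPP (log2 fold change -0.44, 95% interval -0.89 to 0.00). Ube2c, the ubiquitin-conjugating enzyme of the same complex, was at 26.8, 29.2 and 49.5 CPM and 13.3, 24.2 and 29.8 CPM (log2 fold change -0.65, 95% interval -1.33 to 0.04). Both overlapped between the ages, and in both the lowest library was 3MO MPP #1. Ccne2, the second cyclin E gene, was at 28.5, 26.2 and 50.1 CPM and 16.3, 30.4 and 33.8 CPM, and also overlapped. Mki67 was at 2080, 1720 and 1480 CPM at 1MO and 1960, 1610 and 1300 CPM at 3MO (log2 fold change -0.12, 95% interval -0.47 to 0.24), so that the libraries of each age spanned much of the same range.

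**Figure D4:**
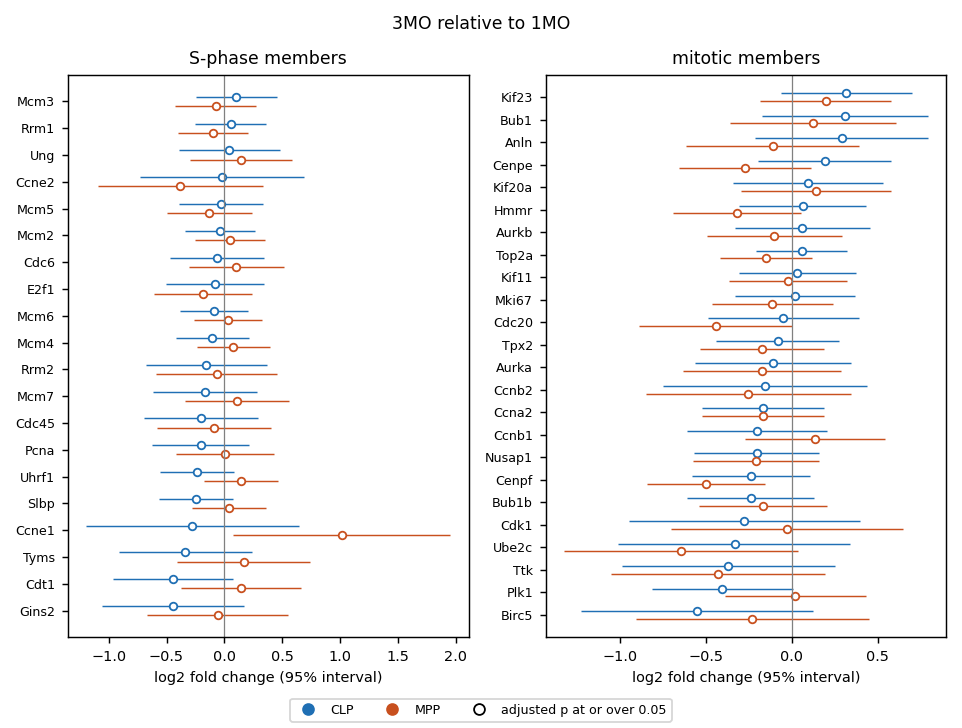
Log2 fold change of each member at 3MO relative to 1MO in CLPs (blue) and MPPs (orange) with its 95% interval from edgeR, S-phase members on the left and mitotic members on the right; open points have an adjusted p of 0.05 or more. No point is filled, and the intervals of all but Ccne1 and Cenpf in MPPs include 0.

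Whether age acted alike on CLPs and MPPs was tested as an interaction, in which edgeR called 0 of 44 members and 0% of all genes. None of the 44 had an unadjusted p under 0.05, against 3.21% of all genes (1.43% higher and 1.78% lower), and DESeq2 called 0 members. The intervals of these differences are wide, and 15 of 20 S-phase and 17 of 24 mitotic members were bounded within 2-fold. Ccne1 had the smallest p, with the age difference in CLPs below that in MPPs by -1.29 on the log2 scale (95% interval -2.61 to 0.02, edgeR adjusted p = 1.0). Uhrf1 followed in S phase at -0.38 (95% interval -0.83 to 0.07), and Cenpe at 0.46 (95% interval -0.08 to 1.01) and Plk1 at -0.42 (95% interval -1.01 to 0.16) were the mitotic members with the smallest p. The median over S-phase members was -0.14 and over mitotic members 0.09 (0.01 without 1MO MPP #1 and 0.22 without 3MO MPP #1), beside -0.01 over all genes.

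Genes of the same processes outside the 44 had positive medians between the populations that were smaller than those of the members. Of 48 other replication genes, 41 were positive at 1MO (median 0.21 on the log2 scale) and 36 at 3MO (median 0.23). In each comparison 1 of the 48 was called higher, no larger a share than the 2.57% and 2.73% of all genes, Fen1, the flap endonuclease of lagging-strand maturation, at 1MO and Hells, a chromatin remodeler needed for DNA methylation, at 3MO. Fen1 was at 97, 120 and 140 CPM in 1MO CLP and 71, 66 and 80.9 CPM in 1MO MPP, a log2 fold change of 0.71 (SE 0.17, edgeR adjusted p = 0.022). Rfc5, of the clamp loader, and Timeless, of the fork protection complex, had log2 fold changes of 0.72 and 0.67 and missed the threshold, with edgeR adjusted p = 0.052 and 0.086. Of 52 other G2 and mitosis genes, 47 were positive at 1MO with a median of 0.29 and 49 at 3MO with 0.40, and 1 and 4 of them were called higher. Nek2, a centrosomal kinase, was the 1 called at 1MO, at 75.4, 69.5 and 79.6 CPM in CLPs and 42.6, 29 and 49.5 CPM in MPPs (log2 fold change 0.89, edgeR adjusted p = 0.021), and Ccnf, Kif2c, Plk4 and Sgo2a were the 4 called at 3MO, with log2 fold changes of 0.85, 0.80, 0.76 and 0.71. Ncapd2, a condensin subunit, and Ect2, the exchange factor of cytokinesis, had log2 fold changes of 0.58 and 0.81 at 1MO with edgeR adjusted p = 0.072 and 0.085. With 1 library left out, Fen1 and Nek2 each kept the call in 8 of 12 fits and lost it without 1MO CLP #2, 1MO CLP #3, 1MO MPP #1 or 1MO MPP #2. Hells and the genes called at 3MO are named after their values were seen.

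Among 20 regulators of these programs, E2f2 rose and Mycn fell in CLPs relative to MPPs at 1MO, and edgeR called 0 at 3MO, where 5 of 20 had an unadjusted p under 0.05, near the 19% of all genes. E2f2, an activator E2F, was at 60.1, 62.9 and 60.7 CPM in 1MO CLP and 34.2, 38.5 and 39.8 CPM in 1MO MPP (log2 fold change 0.71, standard error 0.20, edgeR adjusted p = 0.048). Its call was kept in 3 of 12 fits that left out 1 library, those without 3MO CLP #1, 3MO MPP #1 or 3MO MPP #3. Mycn, a MYC family factor, was at 23.4, 31.5 and 26.7 CPM in 1MO CLP, 75.9, 85.3 and 111 CPM in 1MO MPP, 40.4, 40.9 and 38.5 CPM in 3MO CLP and 38.5, 42.9 and 33.5 CPM in 3MO MPP. It was thus far lower in CLPs than in MPPs at 1MO (log2 fold change -1.74, standard error 0.21, edgeR adjusted p = 0.00011) and level between them at 3MO (0.06). Its age difference in MPPs was -1.24 (edgeR adjusted p = 0.078) and its interaction 1.80 (95% interval 1.17 to 2.42, edgeR adjusted p = 0.24), neither past the threshold. Myb, the c-Myb factor of haematopoietic progenitors, had log2 fold changes of 0.49 at 1MO and 0.46 at 3MO, with edgeR adjusted p = 0.089 and 0.10. Histone genes were listed by name to cover the replication-dependent ones, whose messages lack a poly(A) tail. Of this list 35 of 68 were tested in these libraries of polyadenylated RNA, and none was called in any comparison. H1f0, a linker histone gene of the list whose message is polyadenylated, was at 28, 32.5 and 53.7 CPM in 1MO CLP and 53.6, 59.2 and 108 CPM in 1MO MPP, and Hist1h2br, Hist1h3i, Hist1h2bq and Hist2h3c2, the others that the naming rule picked, were at 0 in 3 or more of the 12 libraries. With age, none of these lists held a called gene in either population. In CLPs the smallest p among them was that of Psrc1, a spindle protein, at 31.9, 23.9 and 28.6 CPM at 1MO and 17.2, 15.9 and 19.5 CPM at 3MO (log2 fold change -0.68, edgeR adjusted p = 0.74), and Fen1 (-0.31), Pola2 (0.47), Ndc80 (-0.36), Rbbp4 (-0.37) and Mycn (0.55, with ages that did not overlap and edgeR adjusted p = 0.78) were the others that the rule picked outside the histone genes.

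Members of different transcript length deviated differently between libraries of the same group. When the members were divided at 3352 bases into 22 shorter and 22 longer, the shorter ones were lower than the longer ones in each library numbered 1, by mean deviations of -0.13 against 0.02 in 1MO CLP #1, -0.07 against 0.02 in 3MO CLP #1, 0.00 against 0.16 in 1MO MPP #1 and -0.20 against 0.07 in 3MO MPP #1, in log2 CPM from the mean of the group. In the libraries numbered 3 the order was the reverse, with 0.12 against 0.01, -0.02 against -0.05, 0.16 against -0.01 and 0.12 against 0.00. The libraries numbered 2 had the same order as those numbered 3 except in 1MO MPP. Their values were 0.01 against -0.04, 0.09 against 0.03, -0.16 against -0.15 and 0.08 against -0.07. The correlation of a member's deviation with the logarithm of its length over the 44 members was 0.33, 0.30, 0.47 and 0.31 in the libraries numbered 1 and -0.19, -0.07, -0.47 and -0.29 in those numbered 3, a description over genes that share a library. Over all 13356 genes with a length it was 0.18, 0.04, 0.13 and 0.19 in the libraries numbered 1 and -0.13, -0.04, -0.30 and -0.25 in those numbered 3, of the same sign as over the members. Between the populations the shorter and longer members had median log2 fold changes of 0.43 and 0.42 at 1MO and 0.38 and 0.46 at 3MO. Between the ages the medians were -0.18 and -0.03 in CLPs and -0.08 and -0.08 in MPPs. For the interaction they were -0.1 and 0.07. What lies behind this spread was not tested.

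**Figure D5:**
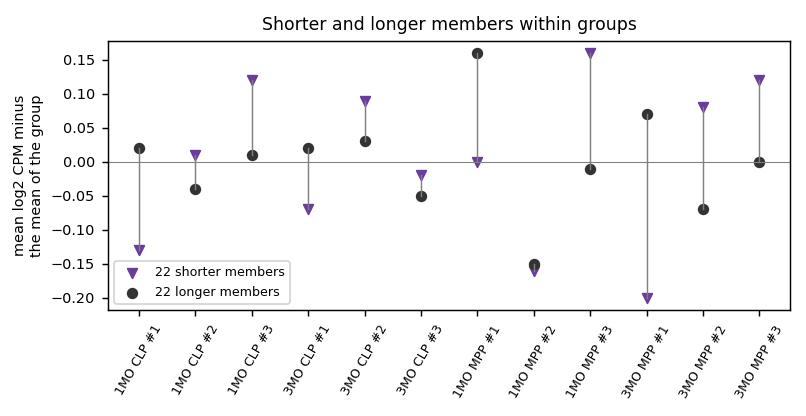
Mean deviation in log2 CPM from the group mean for the 22 members with transcripts of at most 3352 bases (triangles) and the 22 longer members (circles), in each of the 12 libraries. The circle lies above the triangle in the 4 libraries numbered 1, with the widest gap in 3MO MPP #1 (0.07 against -0.20), and below it in the 4 numbered 3.

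The non-member genes whose log2 CPM followed the mean of the S-phase members most closely over the 12 libraries were Surf4 (Pearson's r = 0.96), Milr1 (0.956), Mgat1 (0.952), Ccr7 (0.944) and Zfp422 (0.94). For the mitotic members they were Rasl11b (0.984), Efhd1, Mctp2 (0.963), Slc43a3 (0.961) and Tspan2 (0.955). These are the extremes of all tested genes, over libraries in which the populations fall into separate clusters, and they describe likeness of pattern only.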

How the data were processed

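Per the labels and the methods of the study, polyadenylated RNA was sequenced and the authors processed the reads with FastQC, UMI-tools, Trim Galore, STAR and Salmon on mm10. The deposited table holds estimated counts, 1 row a gene, which allow for average transcript length and leave each library at its own depth. Counts were rounded and tested in R 4.3.3 with edgeR 4.0.16 (filterByExpr, TMM, quasi-likelihood test, 1 fit of 4 groups, Benjamini-Hochberg adjustment over 13367 genes, threshold 0.05) and the script was tested on simulated data. DESeq2 1.42.0 was an alternative, as were other filters, thinning, blocks and each library left out in turn. The study states independent experiments. Library numbers come from the titles, and no label states that equal numbers share a mouse or an experiment. The sample numbers in the column names run through the 4 groups of each library number in turn. A shared experiment is therefore possible, and the main fit does not allow for it. Log2 CPM used a prior count of 2. Transcript lengths and gene positions (GRCm38) were taken from GENCODE M21 and promoters from RefSeq.

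The members and lists were chosen with earlier results of these data known. By rule, genes are named as follows: Mcm2, Pcna, Ccne1, E2f1, Mki67, Top2a, Cdk1 and Plk1, the members of each kind with the smallest p in each comparison (5 and 3 for CLP against MPP at 1MO and 3MO, 3 for age in each population, 2 for the interaction), and from other lists the 3 and 2 genes with the smallest p in CLP against MPP at 1MO and in age in CLPs. Any other gene was named after its values were seen.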

Additional observations from a re-analysis of the deposited data

How the results depend on the processing

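The medians for CLP against MPP stayed above 0 under each alternative run. The median log2 fold change of S-phase members ranged from 0.36 to 0.45 at 1MO and 0.29 to 0.35 at 3MO, and that of mitotic members from 0.37 to 0.49 and 0.50 to 0.61. Those for age were smaller and less steady: -0.19 to -0.06 and -0.14 to -0.01 in CLPs, the last without the libraries numbered 3, -0.03 to 0.07 and -0.25 to -0.08 in MPPs, and -0.23 to -0.07 and 0.01 to 0.22 for the interaction. The number of members past the threshold moved more. For S-phase members at 1MO it was 1, but 6 with DESeq2's Wald test, 2 with all genes of at least 1 count, 2 in a fit of the 6 libraries compared (Ccne1 and Rrm2, not Uhrf1), and 0 to 2 with 1 library left out. For mitotic members at 1MO it was 2, but 4 with DESeq2 and 0 to 2 with 1 library left out. At 3MO it was 0 for S-phase members, 3 with DESeq2 and 0 to 0 with 1 library left out, and 4 for mitotic members, 10 with DESeq2 and 3 to 10 with 1 library left out. Of the alternatives chosen after seeing the data, leaving out the 4 libraries numbered 3 gave 0 in each of these comparisons, with fewer samples, and removing each library's length trend gave 5 S-phase and 5 mitotic members at 1MO and 0 and 9 at 3MO. No member was called for age or the interaction under any alternative, DESeq2 included, with 0 to 0 when 1 library was left out. Calls over all genes moved as well: the share called higher at 1MO and 3MO was 2.57% and 2.73% as reported, 4.04% and 4.57% with DESeq2, 2.45% and 2.5% with genes of at least 1 count, 3.35% and 1.67% with the 6 libraries compared, 0.999% and 0.909% without the libraries numbered 3 and 3.68% and 3.59% without the length trend. Called at both ages were Aurka and Top2a with DESeq2 (2.65% of all genes higher at both), and Kif11, Mki67 and Top2a without the length trend (2.43%).

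With the replicate number as a block, 2 S-phase and 3 mitotic members were called at 1MO and 0 and 9 at 3MO (3.25% and 3.58% of all genes higher), with Top2a called at both ages (2.33% of all genes). With CLP and MPP of 1 age and number as a block, 2 and 2 were called at 1MO and 1 and 6 at 3MO (3% and 3.24% of all genes), with Rrm2 at both (2.17%). Same-numbered libraries deviated together with r of -0.03 to 0.21, in some pairs above the highest r with a different number and in others below it. For number 3 in age in MPPs it was 0.21 against 0.06, and for number 1 in CLP against MPP at 1MO 0.09 against 0.14. Correlations this weak cannot show whether equal numbers share a mouse or an experiment. The blocks were therefore kept as alternatives. The causes of the changes in calls were not tested. At 3MO the log2 fold change of Pcna (0.01) was -0.01 after thinning and, with 1 library left out, -0.08 to 0.18, with -0.07 without 3MO CLP #2, -0.07 without 3MO MPP #1 and -0.08 without 3MO MPP #2. That of Ccne1 (0.12) ranged from -0.27 to 0.48 with 1 library left out, with -0.27 without 3MO CLP #3, -0.12 without 3MO MPP #2 and -0.28 without the libraries numbered 3, and that of Cdk1 (0.09) ranged from -0.18, without 3MO MPP #1, to 0.43. The smallest member count in any library, 39, was that of Ccne1, whose spread limits what can be said of it.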
